A study of Mus musculus with 24 samples.

Results

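Coenzyme A synthesis was followed in mouse hippocampus through the pantothenate kinase genes Pank1, Pank2, Pank3 and Pank4 and through Ppcs, Ppcdc and Coasy, which encode the later enzymes of the pathway. Of these 7 genes, 6 were matched to a probe through the identifiers on the arrays, with 1 probe each, out of 19751 genes matched in all. Pank3 was chosen by its F1 values, because the study listed its probe among those differing between diets in F1, and the other 6 genes were added as its family and pathway. The F1 contrast of the Pank3 probe, and the difference between the generations that contains it, are therefore given as a description with no test. Coasy was not analysed here, and no further Pank3 probe was matched, so that the listed probe could not be set against another probe of the same gene.

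The study asked whether a diet rich in methyl donors, fed to males before mating, alters gene expression in the hippocampus of their descendants. C57BL/6J males received a control diet (CD) or the methyl donor-rich 3MS ZM diet (MD), which contained added zinc, betaine, choline, L-methionine, vitamin B12 and folic acid, for 6 weeks, and were mated with 129S6/SvEv females. CD F1 and MD F1 mice are the hybrid offspring of these males, genetically alike within and between both groups, and CD F2 and MD F2 mice descend from F1 males of either line and CD F1 females, so that the alleles of both strains segregate among them. None of the offspring received the methyl donor-rich diet themselves, none carried an engineered allele, and their age is 4 weeks in the sample labels, whereas the methods describe adult mice. Each of the 4 groups was measured on 6 single-color arrays, 24 in all, and every array held RNA pooled from 4 mice, so that the spread between arrays is that between pools.

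Coenzyme A carries acyl groups through fatty acid synthesis and oxidation, the citric acid cycle and the acetylation of proteins, and cells make it from pantothenate, vitamin B5. Pantothenate kinase performs the first and rate-controlling step, phosphorylation of the vitamin, and is inhibited by acetyl-CoA. Cysteine is then added and the product decarboxylated, and a final bifunctional enzyme attaches the nucleotide and a phosphate. In the brain the pathway is best known from inherited disease, since mutations of the human counterparts of Pank2 and Coasy cause neurodegeneration with brain iron accumulation.

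The 6 marker genes of hippocampal neurons used here (Prox1, Neurod6, Wfs1, Zbtb20, Lefty1 and Bok) were all well above background on all 24 arrays, but so were all 4 neocortical, 4 thalamic and 6 choroid plexus markers and 4 of 5 striatal markers, so that detection alone does not set hippocampus apart from its neighbours. They averaged a log2 signal of 12.47 ± 0.0766 in CD F1, 12.37 ± 0.120 in MD F1, 12.82 ± 0.0978 in CD F2 and 12.84 ± 0.0955 in MD F2 (SD, n = 6). Every group lay on 3 of 6 slides with 2 arrays per slide, both diets shared each slide, and the generations shared neither a slide nor a scanning day, so that generation and slide or scan cannot be told apart. Median intensity per array, on the linear scale, ran from 251 to 318 in CD F1, from 167 to 262 in MD F1, from 151 to 262 in CD F2 and from 148 to 262 in MD F2. Of the 24 arrays, MD F1 replicate 6, CD F2 replicate 6 and MD F2 replicate 3 stood apart from the others of their group, with mean correlations to the rest of their generation of 0.985, 0.977 and 0.974. How precise the values below are is limited by the number of arrays.

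Pank3 encodes a cytosolic pantothenate kinase that acetyl-CoA inhibits strongly. In CD F1 its log2 signal, normalized within the generation, had a lowest value of 8.08, a median of 8.26 and a highest value of 8.49, and in MD F1 these were 6.70, 7.52 and 7.83. All 6 MD F1 arrays lay below all 6 CD F1 arrays, and MD F1 replicate 6 gave the lowest of the 12 values. CD F1 arrays averaged 8.27 ± 0.181 and MD F1 arrays 7.39 ± 0.391 (SD, n = 6). MD minus CD gave a log2 fold change of -0.88 (standard error 0.166), which puts the signal in MD F1 at 54.2% of that in CD F1. On each slide the mean of MD was lower than that of CD, by a log2 difference of -0.60 on slide 1, -1.31 on slide 2 and -0.74 on slide 3. Since the probe was selected on this contrast, its separation in F1 carries no weight of its own. In all, 1.07% of the 39429 probes had all MD F1 arrays below all CD F1 arrays, and 1.79% had groups that did not overlap in either direction.

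In F2, which had no part in the choice of Pank3, the log2 signal ran from 9.06 over a median of 9.26 to 9.56 in CD F2 and from 7.72 over a median of 9.14 to 9.32 in MD F2. The groups overlapped, as 5 of the MD F2 arrays lay between 8.99 and 9.32, and only MD F2 replicate 6 lay far below, at 7.72. CD F2 arrays averaged 9.27 ± 0.199 and MD F2 arrays 8.93 ± 0.607 (SD, n = 6). At -0.35 in log2 fold change (95% interval -0.88 to 0.19, standard error 0.246), the Pank3 probe did not pass the threshold of an FDR under 0.1 in F2 (limma, FDR = 0.922, unadjusted p = 0.186; two-sided exact permutation test, p = 0.173). Without MD F2 replicate 6 the log2 fold change was -0.10. By slide, the log2 difference was -0.90 on slide 4, which held that array, -0.17 on slide 5 and 0.04 on slide 6.

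MD F2 replicate 6 was also unlike the other MD F2 arrays in a measure of the sex of the pooled mice, in which the log2 signal of Xist was taken from the average over Uty, Kdm5d, Ddx3y and Eif2s3y, all on the Y chromosome. This measure was -7.43 on that array and between 5.14 and 7.62 on the other MD F2 arrays. CD F2 replicates 3 and 5 had values of -7.63 and -7.69 in this measure and Pank3 signals of 9.35 and 9.41. The part of sex in the Pank3 signal was not tested. In F1 the sex measure averaged -2.05 ± 0.157 in CD and -1.33 ± 0.855 in MD (SD, n = 6), and MD F1 replicate 6 was highest at 0.11. Among the MD F2 arrays, replicate 6 was also lowest in the ependymal (9.28), oligodendrocyte (14.45) and astrocyte (14.16) markers. By smaller margins it was lowest in the markers of hippocampal neurons (12.75), choroid plexus (8.33) and endothelium (11.10) too. For these the next lowest MD F2 arrays were at 12.77, 8.38 and 11.13. In the microglial, thalamic and neocortical markers it was neither lowest nor highest. In the striatal markers it was highest (9.01). Once the sex measure was a term of the fit, the Pank3 estimate was -0.71 in F1 and -0.43 in F2 (limma, FDR = 0.735 in F2, where the FDR ranged from 0.702 to 1 over all alternatives).

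The order of the Pank3 levels over the groups, from values normalized over all 24 arrays together, was MD F1 (7.23 ± 0.400), CD F1 (8.12 ± 0.180), MD F2 (9.07 ± 0.604) and CD F2 (9.42 ± 0.20; log2, SD, n = 6). The neighbours MD F2 and CD F2 did not differ beyond their spread, and the step from F1 to F2 has the slides, the scans and a different sex measure in it. The diet effect in F1 minus that in F2 was -0.54 (log2, standard error 0.306) for the Pank3 probe. It was -0.31 with normexp background correction, -0.35 without the arrays that stood apart and -0.79 without MD F2 replicate 6.

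**Figure D1:**
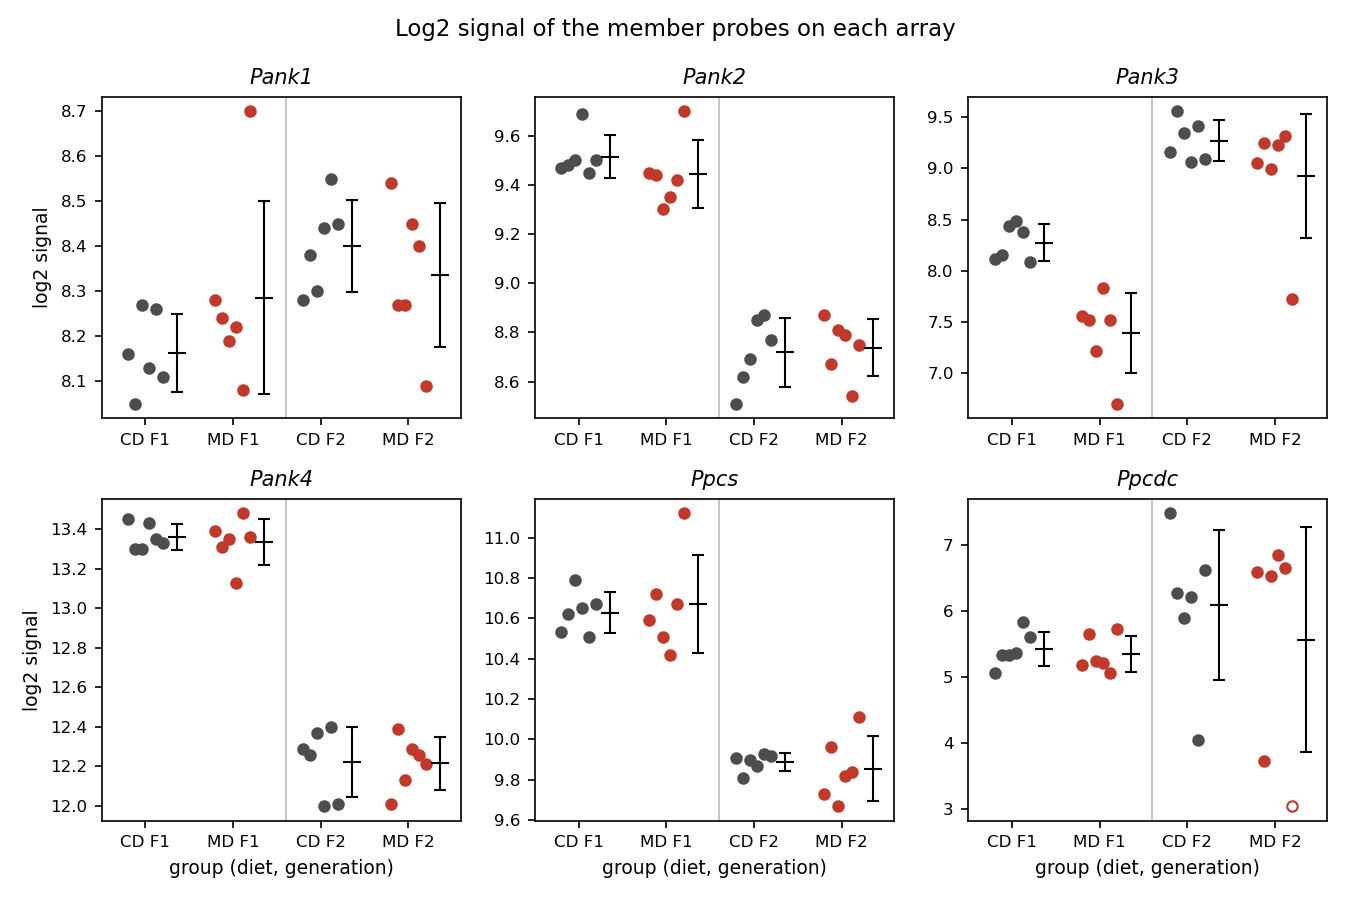
Log2 signal (vertical axis, with a scale of its own for each gene) of the 6 member probes on each array, by group (horizontal axis); each point is an array, open where the probe was not well above background, and the bars give the mean and SD of 6 arrays. For Pank3, the MD F1 arrays lie between 6.70 and 7.83, all below the CD F1 arrays, and 1 MD F2 array lies at 7.72, while for Ppcdc the F2 arrays spread from 3.05 to 7.48.

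Across all probes, 13 of 39429 (0.033%) were called in F1 at an FDR under 0.1 in limma, and 0 of the 5 member probes other than Pank3 were among them. The Pank3 probe was not among the 13 in this fit either, although the study listed it in F1. The study's list at an FDR under 0.1 was longer than 13 probes, and Pank3 stood in it just under that limit. Since the probe was selected on that contrast, its absence here is a description and no test. The 13 calls did not hold across fits, with 0 probes called when slide was a block and 0 to 152 when each array in turn was left out. At an unadjusted p under 0.05 there were 14.4% of all probes in F1 and 0 of the 5 member probes other than Pank3. In F2, 0% of 39423 probes were called, with 2209 probes, or 5.60%, at an unadjusted p under 0.05, and 0 of the 6 member probes were past either limit. Apart from Pank3, 0 of 5 members had diet groups that did not overlap in F1, and 0 of 6 did in F2, where 0.127% of all probes had all MD arrays below and 0.365% had separate groups in either direction. The values of the other members below are thus descriptions of levels and of the size of effect that 6 arrays per group can bound.

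Pank1 encodes a kinase with isoforms in the nucleus and the cytosol, best known from liver. Its log2 signal had a lowest, median and highest value of 8.05, 8.14 and 8.27 in CD F1 and of 8.08, 8.23 and 8.70 in MD F1. The diet groups overlapped, and the highest value belonged to MD F1 replicate 6, well above the other MD F1 arrays, which ended at 8.28. The log2 fold change was 0.12 in F1 (standard error 0.0958, 95% interval -0.09 to 0.33, limma, FDR = 0.569) and 0.04 without MD F1 replicate 6. Its sign turned with the sex measure as a term (-0.03) and without normalization between arrays (-0.20). In F2 the signal lay between 8.28 and 8.55 in CD F2 and between 8.09 and 8.54 in MD F2, and MD minus CD was -0.06 (95% interval -0.25 to 0.12, standard error 0.0856, FDR = 0.960). With each array left out in turn, this difference ran from -0.10 to -0.01.

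Pank2 encodes the mitochondrial pantothenate kinase, whose human counterpart is mutated in pantothenate kinase-associated neurodegeneration. Its log2 signal was 9.51 ± 0.0871 in CD F1 and 9.44 ± 0.139 in MD F1, and 8.72 ± 0.139 in CD F2 and 8.74 ± 0.118 in MD F2 (SD, n = 6). In F1 the groups overlapped mainly through MD F1 replicate 6 at 9.70, as the other MD F1 arrays lay between 9.30 and 9.45 and the CD F1 arrays between 9.45 and 9.50, with CD F1 replicate 4 above them at 9.69. In F2 the diets covered nearly the same range, 8.51 to 8.87 in CD F2 and 8.54 to 8.87 in MD F2. The 95% interval of the log2 fold change was -0.23 to 0.09 around -0.07 in F1 (limma, FDR = 0.663) and -0.16 to 0.20 around 0.02 in F2 (FDR = 0.997). In F1 the estimate was -0.12 without MD F1 replicate 6 (limma, unadjusted p = 0.0539, FDR = 0.356). Over all probes, 5667 had an unadjusted p under 0.05 in that fit, and Pank2 was not among them. The Pank2 estimate was -0.04 without CD F1 replicate 4 (limma, unadjusted p = 0.622) and also -0.04 without MD F1 replicate 3 (limma, unadjusted p = 0.584).

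Pank4 encodes the family member that lacks kinase activity in mammals and acts as a phosphatase. The signal of its probe differed little between pools of a group, with SDs from 0.0688 in CD F1 to 0.176 in CD F2. CD F1 arrays lay between 13.30 and 13.45 and MD F1 arrays between 13.13 and 13.48, so that the groups overlapped. In F2 the means were 12.22 for both diets, with highest values of 12.40 for CD and 12.39 for MD, and the groups again overlapped. Log2 fold changes were -0.02 in F1 (95% interval -0.17 to 0.12, limma, FDR = 0.881) and -0.01 in F2 (95% interval -0.22 to 0.20, FDR = 0.998).

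Ppcs encodes phosphopantothenoylcysteine synthetase, which joins cysteine to the phosphorylated vitamin. CD F1 arrays averaged a log2 signal of 10.63 ± 0.102 and MD F1 arrays one of 10.67 ± 0.246 (SD, n = 6), and MD F1 replicate 6 had the highest value of these groups, 11.12. The other MD F1 arrays ended at 10.72, within the range of the CD F1 arrays, which ended at 10.79. F2 signals ran from 9.81 to 9.93 in CD F2 and from 9.67 to 10.11 in MD F2, with the CD arrays inside the range of the MD arrays. The log2 fold change was 0.04 in F1 (95% interval -0.19 to 0.28, limma, FDR = 0.871; -0.05 without MD F1 replicate 6 and -0.09 with the sex measure as a term) and -0.04 in F2 (95% interval -0.20 to 0.13, FDR = 0.987).

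Ppcdc encodes phosphopantothenoylcysteine decarboxylase, the enzyme of the next step. In F1 all 12 arrays lay close together, with a lowest, median and highest log2 signal of 5.07, 5.36 and 5.83 in CD F1 and of 5.06, 5.23 and 5.73 in MD F1. F2 arrays were far more spread, with 4.05, 6.25 and 7.48 in CD F2 and 3.05, 6.56 and 6.85 in MD F2, and the SD was 1.14 in CD F2 and 1.71 in MD F2 against 0.263 and 0.276 in F1. Low signals occurred under both diets: CD F2 replicate 5 at 4.05, MD F2 replicate 2 at 3.73 and MD F2 replicate 6 at 3.05 lay apart from the remaining F2 arrays, which lay between 5.90 and 7.48. The sex measure of these low arrays was -7.69, 7.35 and -7.43, in that order. CD F2 replicate 3, with a sex measure of -7.63, was next lowest for Ppcdc at 5.90. The part of sex in the Ppcdc signal was not tested. The probe was well above background on every array but MD F2 replicate 6, the F2 array that was also lowest for Pank3. It was dim, however, with a median intensity, on the linear scale, of 48.1 in CD F1 and 36.6 in MD F1. In F2 this median was 81.4 in CD and 78.5 in MD. On the low arrays the intensity was 17.9 (CD F2 replicate 5), 17.7 (MD F2 replicate 2) and 5.94 (MD F2 replicate 6). The F2 spread and estimate of Ppcdc thus rest in part on values near background. The log2 fold change was -0.07 in F1 (standard error 0.148, 95% interval -0.40 to 0.25, limma, FDR = 0.829). In F2 it was -0.53 with a standard error of 0.776 (95% interval -2.22 to 1.17, FDR = 0.967), so that an effect of that size was within the spread of the pools. The estimate moved with single arrays, to -0.02 without MD F2 replicate 6, -0.16 without MD F2 replicate 2 and -0.93 without CD F2 replicate 5, and it was -0.92 with the sex measure as a term and -0.10 with normexp background correction. By slide, the log2 difference of Ppcdc was -0.95, -0.89 and 0.27 on slides 4, 5 and 6.

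**Figure D2:**
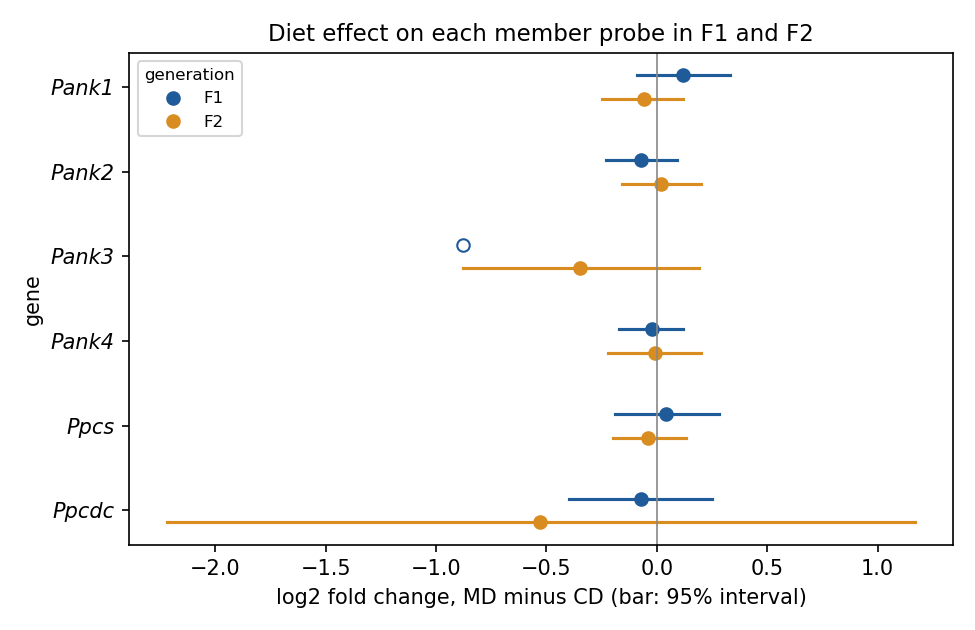
Log2 fold change of MD against CD (horizontal axis) for the 6 member probes (vertical axis) in F1 and F2; filled points have a bar for the 95% interval, and the open point is Pank3 in F1, on which the gene was chosen and for which no interval is drawn. All intervals drawn include 0, and the widest is that of Ppcdc in F2, from -2.22 to 1.17.

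The order of group levels, normalized over all 24 arrays, differed between the members. Pank4 (13.10 and 13.08 in CD F1 and MD F1 against 12.47 and 12.46 in CD F2 and MD F2), Ppcs (10.48 and 10.52 against 10.04 in CD F2) and Pank2 (9.37 and 9.30 against 8.86 and 8.88) had higher log2 signals in F1 than in F2. Pank1 (8.01 and 8.13 against 8.55 and 8.49), Pank3 and Ppcdc (5.19 and 5.11 against 6.29 and 5.78) had higher mean signals in F2. For Ppcdc this holds for the means only, as the F2 arrays spread widely (SD 1.09 in CD F2 and 1.64 in MD F2) and 3 of them, at 4.33, 4.02 and 3.33, lay below every F1 array. Within a generation, neighbouring diet groups of the members other than Pank3 did not differ beyond their SDs. These differences between generations were not tested, since slide and scan cannot be told apart from generation. The sex measure differed between generations as well. F1 arrays lay between -2.32 and 0.11, and F2 arrays either between -7.69 and -7.43 or between 5.14 and 7.62.

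The difference of the diet effects between F1 and F2 was tested for the 5 members other than Pank3. Over all probes, 5 of 39423 (0.0127%) were called at an FDR under 0.1 in limma and 8.29% had an unadjusted p under 0.05, and 0 of the 5 members were past either limit. The estimates ran from -0.09 for Pank2 (95% interval -0.31 to 0.13, FDR = 0.882) to 0.43 for Ppcdc (95% interval -1.20 to 2.07, FDR = 0.930; 0.06 with normexp, 0.08 without MD F2 replicate 2 and -0.06 without MD F2 replicate 6), and the smallest FDR was 0.745, for Pank1 (0.18, or 0.10 without MD F1 replicate 6).

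As a group, the 5 members other than Pank3 had a median log2 fold change of -0.024 in F1, where the median of all probes was 0.006, and of -0.035 in F2, where it was 0.015. In F1, 2 of the 5 were higher and 3 lower in MD, and in F2, 1 was higher and 4 lower, but the sign of Pank4 in both generations and of Pank2 in F2 turned with scaling to the 75th percentile, and those of Pank1 and Ppcs in F1 and of Pank2 in F2 turned without normalization. Without normalization between arrays, the median log2 fold change of all probes was -0.28 in F1. Pank3 was then at -1.23, or -0.95 relative to that median.

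The cellular makeup of the samples was followed with 10 lists of marker genes, and depth, the sex measure and these lists were compared between diets in both generations. The 4 ependymal markers (Foxj1, Tmem212, Ccdc153 and Rarres2, the last with the highest signal) were all well above background on every array. In F1 they are a description with no test, because the study listed Ccdc153 among the genes differing in F1: their mean log2 signal was 9.70 ± 0.101 in CD F1 and 10.08 ± 0.182 in MD F1, and without Ccdc153 it was 9.59 ± 0.0914 and 9.94 ± 0.208. Of the other 25 comparisons, 0 had an adjusted p under 0.05 when p-values were adjusted over these 25 (two-sided exact permutation tests, Benjamini-Hochberg). The lowest adjusted p, 0.0541 (exact p = 0.00433 for both), belonged to the ependymal markers in F2, at 10.12 ± 0.175 in CD F2 and 9.57 ± 0.190 in MD F2, and to the 4 thalamic markers (Tcf7l2, Prkcd, Rora and Calb2, with the highest signal for Prkcd) in F1, at 9.23 ± 0.0822 in CD F1 with a log2 difference of MD minus CD of -0.23 (SD, n = 6 throughout). With the ependymal markers in F1 kept among the tests, 26 in all, the adjusted p of both was 0.0375, so that the side of 0.05 on which they fall depends on that choice. The largest difference in a marker list was that of the 6 choroid plexus markers (Ttr, Kl, Folr1, Kcnj13, Clic6 and Otx2, with the highest signal for Ttr) in F2, at 11.85 ± 2.54 in CD F2 and 9.73 ± 1.83 in MD F2 (adjusted p = 0.309). It came with a wide spread between pools of both diets, as single arrays lay between 8.51 and 13.71 in CD F2 and between 8.33 and 13.04 in MD F2. For the 23 comparisons past the lowest, the adjusted p ran from 0.144, for the median intensity in F1, to 0.913. The part of these differences in the Pank3 signal was not tested, and in bulk tissue fewer cells of a type and less RNA per cell cannot be told apart.

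Around the members, genes of pantothenate and coenzyme A transport, breakdown and use of its phosphopantetheine group were measured with the brightest probe of each gene. Of 14 genes, 0 were called in F1 and 0 in F2 (limma, FDR under 0.1), with 0 and 2 at an unadjusted p under 0.05. By the brightest probes of all genes, 4 of 19751 were called in F1 and 0 of 19750 in F2, and 13.4% and 5.65% had an unadjusted p under 0.05, which is the share to set beside the counts of each list. The median log2 fold change was 0.023 in F1 and -0.032 in F2, against 0.019 and 0.005 over the brightest probes of all genes. In F1 the smallest p belonged to Dcakd, a dephospho-CoA kinase domain protein (-0.14, FDR = 0.471), and to the folate enzyme Aldh1l1 (-0.08, FDR = 0.510). In F2 they belonged to Vnn1 and Slc5a6. Vnn1, a pantetheinase that releases pantothenate, was at 4.11 ± 0.214 in CD F2, where 5 of 6 arrays were well above background, and at 3.20 ± 0.375 in MD F2, where 2 of 6 were (SD, n = 6; limma, unadjusted p = 0.000174, FDR = 0.890). All MD F2 arrays were below all CD F2 arrays for Vnn1, a probe near background, as they were for 0.127% of all probes. Slc5a6, the sodium-dependent transporter that takes up pantothenate and biotin, was at 11.34 ± 0.239 in CD F2 and 10.98 ± 0.127 in MD F2 (log2 fold change -0.36, FDR = 0.890), and in F1 its log2 fold change was -0.03 (FDR = 0.856). The difference between the generations had an FDR of 0.260 for Vnn1 and 0.514 for Slc5a6.

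Among 18 acyl-CoA synthetases and thioesterases, which load acyl groups onto coenzyme A or release them, 0 were called in F1 and 0 in F2, with 2 and 1 at an unadjusted p under 0.05, where the shares over all genes were 13.4% and 5.65%. Their median log2 fold change was 0.021 in F1 and 0.002 in F2. The mitochondrial thioesterase gene Acot2 was at 8.29 ± 0.135 in CD F1 and at 7.56 ± 0.857 in MD F1 (log2 fold change -0.72, standard error 0.325, FDR = 0.340), with groups that did not overlap but a wide spread in MD F1. Of all probes, 1.07% had all MD F1 arrays below all CD F1 arrays. The peroxisomal thioesterase gene Acot8 had a log2 fold change of 0.19 in F1 (FDR = 0.333). In F2 the smallest p were those of Acot4 (0.31, FDR = 0.890) and the long-chain synthetase gene Acsl1 (-0.10, FDR = 0.916).

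Of 18 genes of acetyl-CoA production and use, 0 were called in F1 and 0 in F2, and 1 and 0 had an unadjusted p under 0.05, beside 13.4% and 5.65% of all genes. In this list 14 genes had lower and 4 higher signal in MD F1 and 15 had lower and 3 higher signal in MD F2, with median log2 fold changes of -0.064 and -0.096, where over all genes 8938 of 19751 were lower in MD F1 and 9538 of 19750 in MD F2. These counts are a description of the list. In F1 the smallest p were those of Acat2, the cytosolic acetoacetyl-CoA thiolase (-0.17, FDR = 0.334), and Acacb, an acetyl-CoA carboxylase (0.39, FDR = 0.386). In F2 they were those of Acly, which makes acetyl-CoA from citrate (-0.11, FDR = 0.895), and Cpt2, which returns acyl groups from carnitine to coenzyme A (-0.27, FDR = 0.912).

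Human counterparts of 8 further genes are mutated in neurodegeneration with brain iron accumulation, as that of Pank2 is. Of these genes 0 were called in either generation, with 1 in F1 and 1 in F2 at an unadjusted p under 0.05 in limma (13.4% and 5.65% over all genes), and the median log2 fold change was 0.008 in F1 and -0.021 in F2. The largest difference was that of Cp, which encodes the ferroxidase ceruloplasmin, in F2 (9.42 ± 0.298 in CD F2 and 8.96 ± 0.209 in MD F2, SD, n = 6; log2 fold change -0.47, FDR = 0.890). The choroid plexus markers (log2 difference of MD minus CD -2.13 in F2) and the ependymal markers (-0.55) differed in the same direction, and their part in the Cp signal was not tested. In F1 the smallest p were those of 1600014C10Rik (0.22, FDR = 0.341) and the autophagy gene Wdr45 (0.11, FDR = 0.431), and Wdr45 was also second in F2 (0.09, FDR = 0.920).

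The genes most like the Pank3 probe were sought by the Spearman correlation of log2 signals over the 24 arrays, after the mean of each group had been subtracted, among 17953 probes with a symbol that were well above background on all arrays. They were Tgoln1 (0.783), Nipbl (0.779), Cacna2d1 (0.775), Cnot6l (0.763) and Hnrnpa3 (0.761), where the median over the probes compared was 0.00783. None of the other members was near these values, with Spearman correlations to Pank3 of 0.328 for Pank4, 0.163 for Pank1, 0.00957 for Ppcdc, -0.223 for Ppcs and -0.237 for Pank2. Without the 3 arrays that stood apart, 0 of the 5 genes were still among the 5 most like it, though they kept correlations of 0.656 to 0.725 and ranks from 23 to 103. Over the same 24 arrays the points share slide, generation and normalization, and the correlations are a description.

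Pank1, Pank2 and Pank3 share a feature that the choice of genes did not use: each hosts a microRNA gene of the same family on its own strand. The RefSeq tables of build GRCm38.p6 place Mir107 within Pank1, Mir103-2 within Pank2 and Mir103-1 within Pank3, and these microRNAs are known to lie in introns of their hosts. No probe of the arrays was matched to them, so that their levels were not analysed here. The sequences are shown because a host transcript and its microRNA can start as 1 RNA, which was not tested for these genes. The mature 3p sequences follow, 5′ to 3′, with the seed, bases 2 to 8, in capitals.
mmu-miR-103-3p, from Pank3 at chr11:35782447-35782469 (+) and from Pank2 at chr2:131288103-131288125 (+): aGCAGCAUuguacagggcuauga
mmu-miR-107-3p, from Pank1 at chr19:34820700-34820722 (−): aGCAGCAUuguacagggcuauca
Both share the seed GCAGCAU, and the copies in Pank2 and Pank3 give the same mature 3p sequence. The 5p arms also share a seed with each other.
mmu-miR-103-1-5p, from Pank3 at chr11:35782410-35782432 (+): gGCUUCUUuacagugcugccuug
mmu-miR-103-2-5p, from Pank2 at chr2:131288066-131288088 (+): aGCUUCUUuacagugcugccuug
mmu-miR-107-5p, from Pank1 at chr19:34820737-34820759 (−): aGCUUCUUuacaguguugccuug

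Because the diet supplies methyl groups, the dinucleotide CG, at which mammalian DNA is methylated, was counted in the RefSeq promoter windows of the members, each 300 bases long (GRCm38.p6; CG reads the same on both strands). The 6 measured members had 9 windows. The window of Pank3 held 20 CG, that of Ppcs 22, that of Pank4 16 and that of Ppcdc 11, Pank1 had 8 and 10 in its windows, and Pank2 had 3, 30 and 51. Over all 32851 windows the median was 7, and 94.6% held at least 1 CG. Of all windows, 73.5% held fewer CG than that of Pank3. These are counts of letters, and methylation at these windows was not analysed here.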

How the data were processed

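The intensity in the authors' files is, per the file headers, the processed signal of Agilent Feature Extraction 10.7.3.1, linear and not scaled from array to array. The authors' own normalized table served as an alternative. Of 43020 non-control spots, irregular ones were left out (1939 in F1, 2097 in F2), log2 values were quantile-normalized within F1, within F2 or over all 24 arrays, and spots were averaged into 39429 probes, 26055 with a symbol by RefSeq accession. Diet effects were fitted over all probes with limma 3.58.1 in R 4.3.3, with group means as the only terms, at a Benjamini-Hochberg FDR under 0.1. Depth, sex and marker measures were compared by exact permutation, two-sided, with 924 assignments. Members and gene lists were chosen with earlier results of these data known. Named genes are the members, the 2 with the smallest p per list and generation, and the 5 most like Pank3. Normexp used the median signal, since no mean signal was used here. The meaning of the lh or rh code of the F2 labels is not given in the sources used here.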

Additional observations from a re-analysis of the deposited data

Results flagged for a closer look

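Within each group of 6 arrays, the highest or lowest array was compared with the rest by the gap to its neighbour as a share of the group's range. Of 76 such sets, 8 held an array beyond the limit of Dixon's test, where chance gives about 1 in 20, or 3.8. Among the 24 sets of member probes there were 4.

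For Pank3, MD F2 replicate 6 had a log2 signal of 7.72, where the other MD F2 arrays lay between 8.99 and 9.32. The sex measure of the same array was -7.43, where the others lay between 5.14 and 7.62. For Pank1, MD F1 replicate 6 was at 8.70, with the others between 8.08 and 8.28. For Pank2, MD F1 replicate 6 was at 9.70, with the others between 9.30 and 9.45, and CD F1 replicate 4 was at 9.69, with the others between 9.45 and 9.50. CD F1 replicate 4 also had the lowest mean of the choroid plexus markers, 8.32, where the other CD F1 arrays lay between 10.42 and 11.46.

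Spots well above background numbered 28000 on CD F2 replicate 6, where the other CD F2 arrays had 32809 to 34661, and 27383 on MD F2 replicate 3, where the other MD F2 arrays had 32916 to 33742.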

How the results depend on the processing

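For 18 results 492 alternatives were fitted, of which 36 turned the sign and 2 brought a member past the threshold. The others kept the sign and, where a test is given, the call, though not always the size. For Pank3 in F1 and in the difference no test is given, since the gene was chosen by its F1 values. The log2 fold change of Pank3 kept its sign in all of them. In F1, where it was -0.88 and is a description, it was -1.23 without normalization between arrays, -0.65 with normexp and -0.97 to -0.74 when each array in turn was left out. In F2 it ran from -0.43 to -0.10 with an FDR from 0.702 to 1, and the difference between the generations ran from -0.80 to -0.31.

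The signs of small effects turned. Without normalization, Pank1 was at -0.20 in F1 and -0.04 in the difference, Pank2 at -0.06 in F2, and Ppcs at -0.22 in F1 and -0.11 in the difference. Scaling to the 75th percentile gave -0.02 for Pank2 in F2 and, for Pank4, 0.02 in F1, 0.02 in F2 and 0.01 in the difference. With the sex measure as a term, Pank1 was at -0.03, Pank4 at 0.03 and Ppcs at -0.09 in F1, and Pank4 at 0.01 in F2. Normexp put the difference of Pank4 at 0.03. Without the arrays that stood apart, the difference of Pank4 was 0.01, and Ppcs was at -0.05 in F1, 0.01 in F2 and -0.05 in the difference. Leaving out each array in turn gave -0.02 to 0.06 for Pank2 in F2; for Pank4 -0.05 to 0.02 in F1, -0.05 to 0.03 in F2 and -0.06 to 0.03 in the difference; for Ppcdc -0.15 to 0.01 in F1, -0.93 to -0.02 in F2 and -0.06 to 0.82 in the difference; and for Ppcs -0.05 to 0.09 in F1, -0.09 to 0.00 in F2 and -0.01 to 0.13 in the difference. Without normalization Pank2 (-0.37, FDR = 0.0736) and Ppcdc (-0.48, FDR = 0.0923) passed the threshold in F1, where the median of all probes was -0.28.

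The number of probes called in F1, 13, was 0 at an FDR under 0.05, 4 with the 75th percentile, 7952 without normalization (22 higher and 7930 lower), 5 with normexp, 6 without dim probes, 0 with slide as a block, 0 with the sex measure, 73 with all 24 arrays fitted together, 152 without the arrays that stood apart, and 0 to 152 when each array was left out. In F2, 0 became 18 with all 24 arrays fitted together and 0 to 1 when each array was left out. For the difference, 5 became 4 at an FDR under 0.05, 0 without normalization, 9 with normexp, 12 without dim probes, 12 with the sex measure, 22 without the arrays that stood apart, 56 with the code of the F2 labels and 3 to 41 when each array was left out. The cause was not tested.

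The replicate numbers were not taken to pair the samples. Same-numbered arrays of both diets correlated from -0.0534 to 0.206 in F1 and from -0.174 to 0.194 in F2 after the group means were taken off, with 1 of 6 and 3 of 6 pairs over 0.1, and 3 of 12 and 4 of 12 arrays correlated best with the array of their own number. With a replicate block, 0 probes were called in F1, 0 in F2 and 27 for the difference, and the standard error of Pank3 was 0.131 in place of 0.166 in F1 and 0.201 in place of 0.246 in F2. Of the 5 genes most like Pank3, 0 remained without the arrays that stood apart and 1 with the Pearson correlation.

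The limits are those of 6 pools per group, 1 probe per gene and no second platform. Generation cannot be told apart from slide and scanning day, and mice within a pool are not seen singly. The p-values set differences between groups against the spread between pools, not between mice.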
